A study of Cucumis sativus with 2 samples.

Results

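The YABBY genes of cucumber (Cucumis sativus) are described here in bending fruit, as all genes of the deposited read table whose listed Arabidopsis homologue is YAB1 (AT2G45190, also called FILAMENTOUS FLOWER or FIL), YAB2 (AT1G08465), YAB3 (AT4G00180), YAB5 (AT2G26580), INNER NO OUTER (INO, AT1G23420) or CRABS CLAW (CRC, AT1G69180). These 6 Arabidopsis loci matched 8 cucumber genes out of 20700 in the table, namely 1 copy each of YAB1, YAB2, YAB3 and CRC, and 2 copies each of YAB5 and INO. Poly(A) RNA was sequenced from fruit collected on day 2 after anthesis, in 1 library from the ventral side and 1 library from the dorsal side. No genotype, strain or treatment is stated in the labels used here for either side, both libraries come from fruit described as bending, and the number of fruits behind each library is not stated. With 1 library per side, no difference below has a replicate check, and every interval covers counting error only.

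YABBY proteins are plant transcription factors that pair a zinc finger with a DNA-binding domain resembling an HMG box. In Arabidopsis most of them are active on the abaxial side of leaves and floral organs, where they act beside KANADI and AUXIN RESPONSE FACTOR proteins and opposite the adaxial class III homeodomain leucine zipper (HD-ZIP III) factors, and they also promote growth of the blade. CRC acts in carpels and nectaries and INO in the outer integument of the ovule. The labels do not relate the ventral and dorsal sides of the fruit to adaxial and abaxial faces.

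The 5 YABBY copies with at least 20 reads fell into a pair of abundant genes at similar levels on both sides and 3 scarcer genes with more reads on the dorsal side. YAB2 and YAB3 differed by less than 2-fold between the libraries, whereas YAB1, CRC and the main YAB5 copy were lower in the ventral library, with dorsal levels 9.93-fold, 5.83-fold and 4.81-fold as high. The INO copies and the other YAB5 copy had at most 3 reads in either library. Ratios are ventral over dorsal after scaling by the trimmed mean of M values (TMM), which put the ventral over the dorsal depth at 2.16, and brackets hold 95% exact conditional binomial intervals on the log2 scale. Genes with 20 or more reads summed over the libraries count as measured. A measured gene is called ventral-high or dorsal-high when its ratio reached 2-fold in that direction and the interval excluded 1. Of the 8 YABBY copies 5 were measured, and 0 of these were called ventral-high and 3 dorsal-high. CRC, 1 of the 3, passed the minimum of 20 reads through the dorsal library alone, and a minimum of 100 reads leaves 2 dorsal-high copies. Over all 17462 measured genes, 13.2% were ventral-high and 11.5% dorsal-high.

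YAB1, which in Arabidopsis specifies abaxial identity and blade growth together with YAB3, lay furthest from a ratio of 1 among the measured copies. Its cucumber copy, Csa5G160210 on chromosome 5, had 50 ventral and 230 dorsal reads, or 1.83 RPKM (reads scaled for gene length and library depth) in the ventral library and 15.21 RPKM in the dorsal library. The log2 ratio was -3.31 [-3.78 to -2.87]. Only 0.212% of measured genes had a lower ratio. At the dorsal level and the scaled depth, 496.7 ventral reads would have been counted, against the 50 that were. By RPKM this gene ranked 16104 of 20815 genes in the ventral library and 7272 in the dorsal library.

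YAB3 (Csa3G033810, chromosome 3), the closest partner of YAB1 in Arabidopsis, had 1460 ventral and 832 dorsal reads. Its level was 51.62 RPKM in the ventral and 53.04 RPKM in the dorsal library, and its log2 ratio of -0.30 [-0.42 to -0.17] was well short of 2-fold. Of measured genes 35.8% had a lower ratio, so YAB3 lay near the middle of the genome-wide distribution. The listed homologues that act together in Arabidopsis leaves therefore had side ratios 3.01 apart on the log2 scale [2.55 to 3.50], the YAB3 ratio being the higher.

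YAB2 (Csa6G426940, chromosome 6), known in Arabidopsis as a member expressed in leaves and floral organs, was the most abundant YABBY transcript in both libraries. It had 3038 ventral and 1214 dorsal reads, 245.2 RPKM in the ventral and 176.56 RPKM in the dorsal library, at ranks 450 and 797 among all genes. The log2 ratio was 0.21 [0.12 to 0.31], the only one of the 5 above 0. YAB2 alone gave 66.1% of all YABBY reads in the ventral library [64.7 to 67.4%] and 50.9% in the dorsal library [48.9 to 52.9%], with exact binomial 95% intervals in percent.

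YAB5, another leaf YABBY of Arabidopsis, had a main copy on chromosome 2 (Csa2G006820) with 35 ventral and 78 dorsal reads. Its level was 2.37 RPKM in the ventral and 9.46 RPKM in the dorsal library, a log2 ratio of -2.27 [-2.89 to -1.67]. The other copy (CsaUNG026620), on an unplaced scaffold, had 1 ventral read and 2 dorsal reads, which are at or under the floor of 3 reads that a count of 0 allows, so no ratio is given. Copies of a family can share reads, and how the counting treated such reads is not given in the sources used here. Summed over both copies YAB5 had 36 ventral and 80 dorsal reads, and the log2 ratio was -2.26 [-2.87 to -1.68].

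CRC (Csa5G606780, chromosome 5), the carpel and nectary member, had 10 ventral and 27 dorsal reads. These gave 0.49 RPKM in the ventral library, with an exact Poisson 95% interval of 0.237 to 0.908, and 2.41 RPKM in the dorsal library, with an interval of 1.58 to 3.50. The log2 ratio was -2.54 [-3.75 to -1.45], the widest interval of the measured copies, and the dorsal library alone took the gene past the minimum of 20 reads. INO was at the edge of detection. The copy on chromosome 5 (Csa5G600930) had 3 ventral and 2 dorsal reads, and the copy on chromosome 2 (Csa2G348870) had 1 ventral and 0 dorsal reads. For the last gene, 3 reads would correspond to 0.649 RPKM in the dorsal library, and the exact Poisson 95% interval on its 0 dorsal reads reached 0.798 RPKM.

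**Figure D1:**
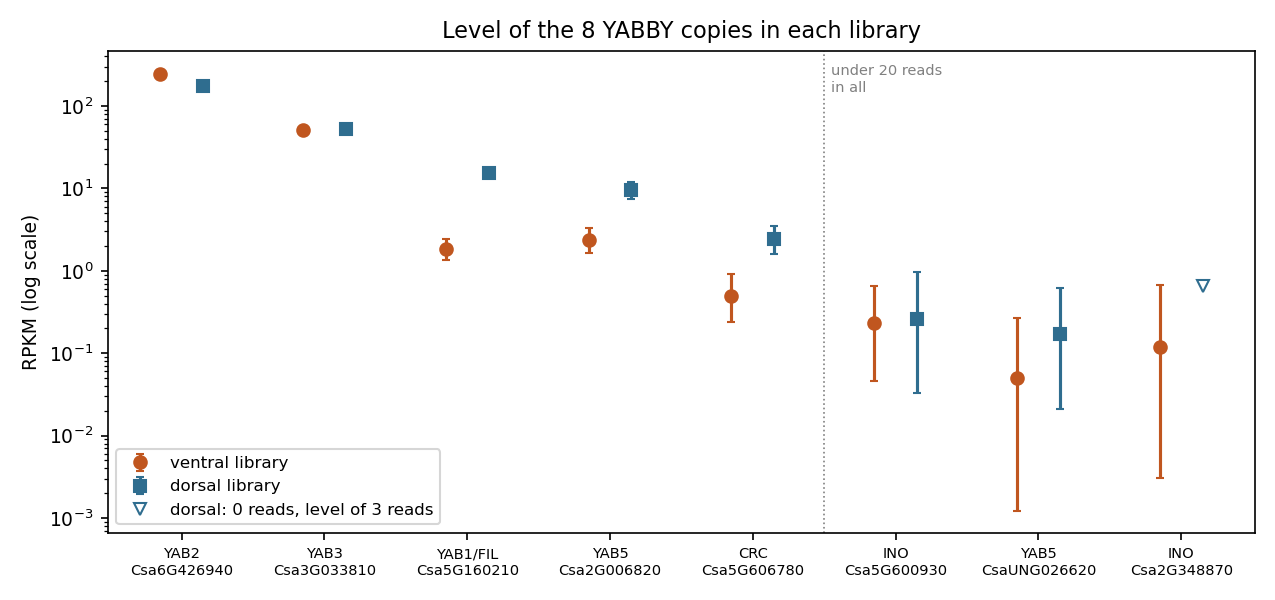
Level of each of the 8 YABBY copies in RPKM on a log axis, in the ventral (circles) and the dorsal library (squares), with exact Poisson 95% intervals on the reads. YAB2 and YAB3 lie above 50 RPKM on both sides, while YAB1, YAB5 and CRC lie lower in the ventral library with intervals that do not overlap; the open triangle marks the level of 3 reads where 0 were counted.

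Levels are per length here and can be ordered within a library. In the ventral library the order was YAB2, YAB3, YAB5, YAB1, CRC and then the copies near detection. YAB2 stood 4.75-fold above YAB3, and YAB3 21.8-fold above the main YAB5 copy. YAB5 and YAB1, at 2.37 and 1.83 RPKM, did not differ beyond their counting intervals, and neither did CRC and the chromosome 5 copy of INO. In the dorsal library the order was YAB2, YAB3, YAB1, YAB5 and CRC. There YAB2 was 3.33-fold above YAB3 and YAB3 3.49-fold above YAB1, and each of these 5 copies differed from its neighbour beyond the counting intervals. Of YAB1 and YAB5, YAB1 was the higher in the dorsal library, where their intervals were separate, at 13.3 to 17.3 RPKM for YAB1 and 7.49 to 11.8 RPKM for YAB5.

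Summed over the family, the sides were close. The 8 copies together had 4598 ventral reads, or 210.3 CPM (reads scaled for depth only), and 2385 dorsal reads, or 200.5 CPM. CPM here is scaled by total reads, on which each log2 ratio is 0.23 higher than on the TMM scale used for ratios. The deposited RPKM values are not on the TMM scale either. Which side had the higher family sum therefore depends on the scale. The summed level was 301.9 RPKM in the ventral and 257.1 RPKM in the dorsal library, and YAB2 and YAB3 gave 81.2% and 17.1% of that sum in the ventral and 68.7% and 20.6% in the dorsal library. YAB1 gave 1.09% of YABBY reads in the ventral [0.808 to 1.43%] and 9.64% in the dorsal library [8.49 to 10.9%]. In bulk tissue, fewer cells with a transcript and less of it per cell cannot be told apart.

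The difference in log2 ratio between members does not depend on how the libraries are scaled. Among the 10 pairs of measured copies, the exact conditional 95% interval of that difference excluded 0 for 8 and held 0 for 2. The YAB2 ratio exceeded the YAB3 ratio by 0.51 [0.35 to 0.67]. It exceeded those of YAB1, CRC and YAB5 by 3.52 [3.07 to 4.01], 2.76 [1.66 to 3.97] and 2.48 [1.88 to 3.11]. Among the dorsal-high copies, YAB1 lay 1.05 below YAB5, a difference of -1.05 [-1.81 to -0.27]. CRC could not be placed relative to either: YAB1 minus CRC was -0.77 [-1.97 to 0.54] and YAB5 minus CRC was 0.28 [-1.0 to 1.64]. These differences do move with the trend over transcript length described below. With it removed, YAB1 minus YAB5 was -1.38 in place of -1.05 and YAB2 minus YAB3 was 0.75 in place of 0.51. YAB3 minus YAB5 was 1.63 in place of 1.97.

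**Figure D2:**
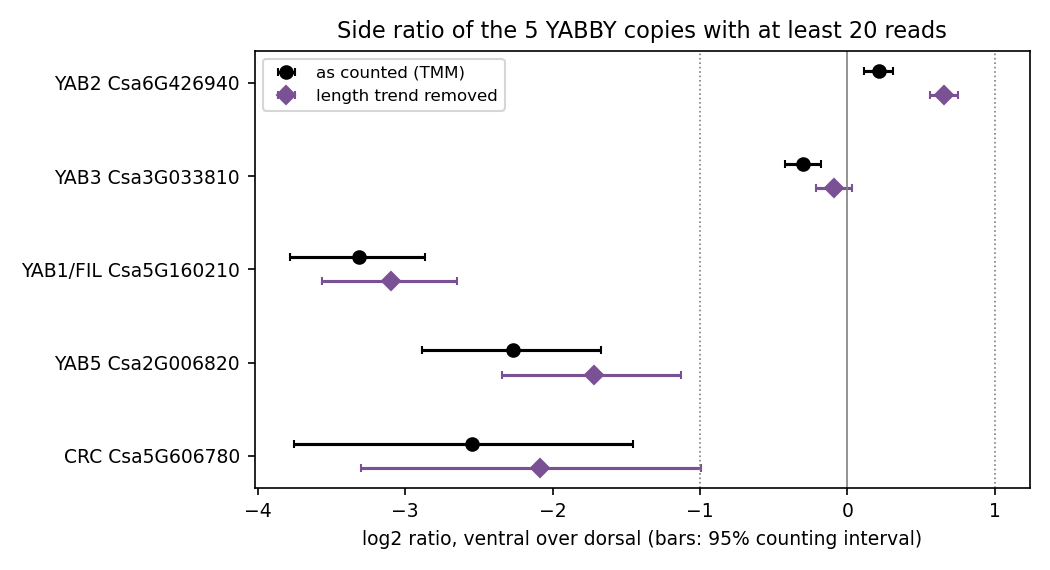
Log2 ratio, ventral over dorsal, of the 5 YABBY copies with at least 20 reads, as counted after TMM scaling (circles) and with the trend over exonic length removed (diamonds); bars are 95% counting intervals and dotted lines mark 2-fold. YAB1, YAB5 and CRC lie left of the dotted line at -1 in both versions, and YAB2 and YAB3 lie between the lines.

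Across the whole table the side ratio moved with transcript length, which touches the YABBY genes because their transcripts are short to middling. The exonic length implied by reads and RPKM was 562 bp for YAB2, 673 bp for YAB5, 918 bp for CRC, 1236 bp for YAB1 and 1282 bp for YAB3, against a median of 1464 bp for all measured genes. The median log2 ratio was -0.42 in the shortest 20% of genes, up to 856 bp, and 0.59 in the longest 20%, above 2273 bp. Read against genes of like length, 24.6% of the shortest 20%, which hold YAB2 and YAB5, were dorsal-high, and so were 17.5% of the next 20%, which hold CRC and YAB1. With the running median over length subtracted, the log2 ratios were -3.10 for YAB1, -2.09 for CRC, -1.72 for YAB5, -0.09 for YAB3 and 0.66 for YAB2. The same 3 copies were called and the other two were not, where 11.1% of all measured genes were ventral-high and 8.1% dorsal-high. YAB3 was then no longer apart from a ratio of 1 [-0.21 to 0.03], and YAB2 lay further to the ventral side [0.56 to 0.75]. Depth differed too between the members: among genes of 20 to 280 reads, a range that ends at YAB1 and also holds YAB5 and CRC, 15.4% were dorsal-high. As counted, the whole 95% interval lay beyond 2-fold for all 3, which was so for 6.45% of measured genes on the dorsal side. With the length trend removed this held for YAB1 [-3.57 to -2.65] and YAB5 [-2.34 to -1.13] but not for CRC, whose interval ended at -0.996.

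**Figure D3:**
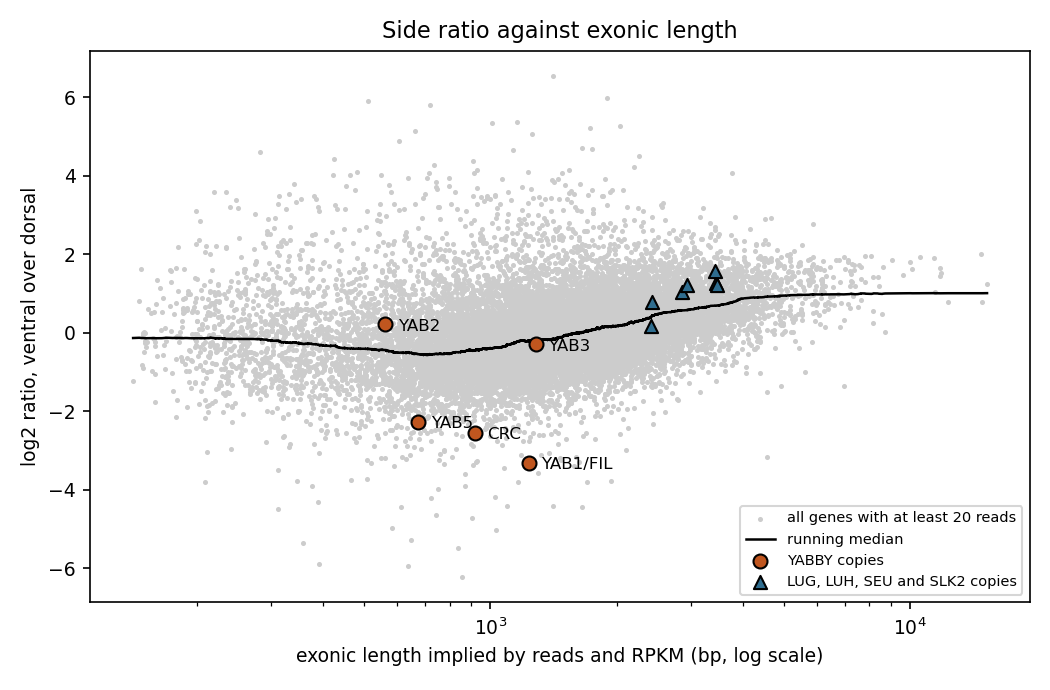
Log2 ratio, ventral over dorsal, against exonic length on a log axis for all genes with at least 20 reads (grey), with the running median (line), the 5 measured YABBY copies (circles) and the 7 copies of the co-repressor genes LUG, LUH, SEU and SLK2 (triangles). YAB1, CRC and YAB5 lie far below the line, whereas the co-repressor genes lie at the long end where the line itself is above 0.

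Co-repressor partners of YABBY proteins had more reads in the ventral library, as counted. LEUNIG (LUG), LEUNIG_HOMOLOG (LUH), SEUSS (SEU) and the SEUSS-LIKE proteins form a transcriptional co-repressor complex that binds YABBY factors in leaves. All 7 measured copies had ratios above 0, and 5 were called ventral-high beside the background of 13.2%. SEU Csa6G397700 had 1062 ventral and 167 dorsal reads, a log2 ratio of 1.56 [1.32 to 1.80], and SEU Csa6G343700 had 1019 and 204 reads, a log2 ratio of 1.21. The SLK2 copies Csa3G180360 and Csa5G173550 had log2 ratios of 1.26 and 1.21, and LUG (Csa2G379340) had 1.04. The LUH copies Csa3G131970 and Csa1G403660, at 0.78 and 0.18, were not called. These transcripts are long, with a median of 2940 bp, and 27.0% of the longest 20% of genes were ventral-high. With the length trend removed 0 of the 7 were called, and the list median was 0.52 in place of 1.21, beside a median over all measured genes of 0.01 as counted and 0.00434 with the trend removed.

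Among KANADI genes, whose products specify the abaxial side, 0 of 4 measured copies were called. With 13.2% ventral-high and 11.5% dorsal-high genes over the whole table, few calls in so short a list are near the background. KAN1 Csa3G194380, with 2229 ventral and 937 dorsal reads, had a log2 ratio of 0.14, and KAN1 Csa1G043000 had 0.18. The KAN2 copies Csa3G901010 and Csa3G008330 had -0.09 and -0.40. None of the 5 measured HD-ZIP III copies was called as counted. REVOLUTA (REV, Csa6G141360) had a log2 ratio of 0.85, the PHABULOSA copies Csa6G525430 and Csa1G538230 had 0.74 and -0.22, ATHB15 (Csa7G452940) had 0.54, and the vascular member ATHB8 (Csa3G895630) had -0.53. ATHB8, at -1.05, was dorsal-high once the length trend was taken out. By level, the YAB2 transcript exceeded every KANADI and HD-ZIP III copy in both libraries, the highest of these being KAN1 Csa3G194380 at 51.16 RPKM in the ventral and 38.75 RPKM in the dorsal library.

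Among the other leaf polarity genes, 1 of 10 measured copies was ventral-high and 2 were dorsal-high as counted, beside 13.2% and 11.5% of all measured genes. With the length trend removed 1 was ventral-high and 4 were dorsal-high, beside 11.1% and 8.1% of all measured genes. AGO7 (Csa5G606440), the Argonaute that starts tasiRNA production against ARF3 and ARF4, had 1023 ventral and 92 dorsal reads, a log2 ratio of 2.36 [2.06 to 2.69], and stayed called at 1.68 with the length trend removed. The auxin response factors ETTIN (ARF3, Csa6G518210) and ARF4 (Csa6G291920), which act with KANADI on the abaxial side in Arabidopsis, had log2 ratios of -0.79 and -0.58 and were not called. With the length trend removed they were -1.42 and -1.18 and both were dorsal-high. The MYB factor gene AS1, which acts on the adaxial side, had a dorsal-high copy (Csa3G734210, 242 ventral and 286 dorsal reads, -1.35) and a more abundant copy that was not called (Csa3G264750, 0.20). DCL4, a Dicer of the same small RNA route, was likewise split as counted, with Csa4G006230 at -1.47, called, and Csa1G267180 at 0.27. Their implied exonic lengths were 956 and 5255 bp. With the length trend removed both lay below 0, Csa4G006230 at -1.05, called, and Csa1G267180 at -0.69, not called. The remaining members SGS3 (Csa2G336740), RDR6 (Csa2G381730) and ARF2 (Csa1G000580) had 0.70, 0.97 and 0.47 and were not called.

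Genes that act with or below YABBY factors in carpels and meristems were counted as well, beside 13.2% ventral-high and 11.5% dorsal-high genes over the whole table. Of 11 measured copies of carpel partners, which include SPATULA (SPT), NGATHA1, STYLISH1 and the CRC targets TRN2 and YUC4, 1 was called, the SPT copy Csa6G491000 with 52 ventral and 8 dorsal reads and a log2 ratio of 1.59 [0.51 to 2.88]. The called SPT copy passed the minimum number of reads through the ventral library alone, and a minimum of 100 reads leaves it out. The other SPT copy (Csa2G356640), with 240 ventral and 124 dorsal reads, had a log2 ratio of -0.16. Of 8 class I KNOX copies, meristem genes that YABBY factors restrain in Arabidopsis, 1 was called, KNAT1 Csa2G352430 with 32 ventral and 30 dorsal reads and a log2 ratio of -1.02 [-1.78 to -0.25]. It was not called with the length trend removed, at -0.80, and a SHOOT MERISTEMLESS copy (STM, Csa7G041370), at 0.72 as counted, then was ventral-high. The list medians were -0.16 for carpel partners and -0.01 for KNOX genes, beside 0.01 for all measured genes.

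**Figure D4:**
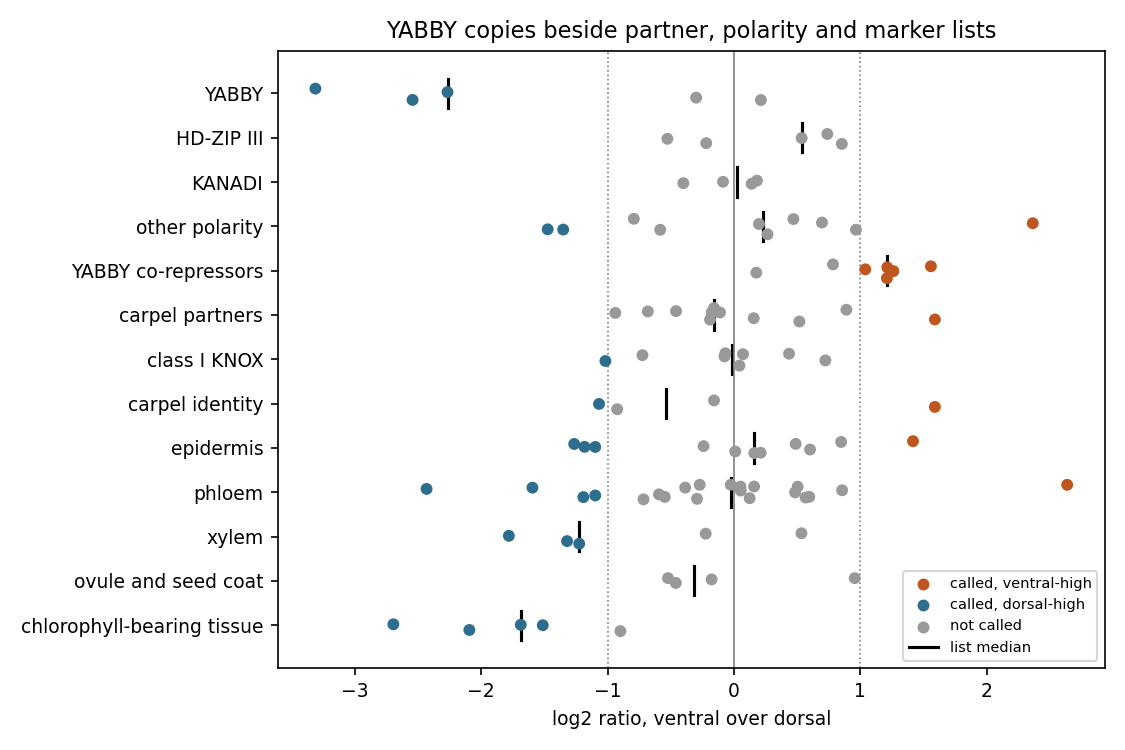
Log2 ratio, ventral over dorsal and as counted, of each measured copy in the YABBY family and in the partner, polarity and marker lists; black ticks are list medians, dotted lines mark 2-fold and colours show which copies were called. The YABBY median of -2.27 rests on 5 copies and is -1.28 over the 4 copies with at least 100 reads; the chlorophyll-bearing tissue list has a median of -1.69 and the xylem list of -1.22.

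The fruit label was checked against carpel identity genes, and marker lists were compared between the libraries. AGAMOUS (Csa1G467100) had 77.53 RPKM in the ventral and 122.7 RPKM in the dorsal library, and FRUITFULL (Csa1G039910) had 80.57 RPKM in the ventral and 141.0 RPKM in the dorsal library. Of 4 measured copies in that list 1 was ventral-high, the SPT copy given above, and 1 was dorsal-high, FRUITFULL at a log2 ratio of -1.07, which was not called with the length trend removed, at -0.77. Genes of chlorophyll-bearing tissue moved the same way as YAB1, YAB5 and CRC: 4 of 5 measured copies were dorsal-high, beside 11.5% of all measured genes and 17.5% of genes in the length class that holds their median of 1138 bp, with a summed level of 2291 RPKM in the ventral and 8199.8 RPKM in the dorsal library, and no copy was at 0. Xylem markers did so in 3 of 5 copies, among them the cysteine protease gene XCP1 (Csa7G027790), whose dorsal level was 3.44-fold the ventral one, with summed levels of 29.04 RPKM ventral and 60.36 RPKM dorsal; another XCP1 copy had 1 ventral and 0 dorsal reads. The called copies of XCP1 and XCP2 (Csa4G664420) fall among genes of 1259 to 1683 bp, of which 9.74% were dorsal-high. The called IRX3 copy (Csa2G070320) falls among genes above 2273 bp, of which 1.49% were dorsal-high. The other 2 measured xylem copies were not called. IRX5 (Csa6G088080) had a log2 ratio of 0.53 [0.18 to 0.90] and IRX1 (Csa1G470270) had -0.22 [-0.72 to 0.29]. With the length trend removed these were -0.20 and -0.91, still not called. VND7 (Csa7G273640), under the minimum, had 7 ventral reads and 1 dorsal read. In the epidermis list 1 of 11 copies was ventral-high (9.09%) and 3 were dorsal-high (27.3%). In the phloem list 1 of 21 was ventral-high (4.76%) and 4 were dorsal-high (19.0%). All measured genes gave 13.2% ventral-high and 11.5% dorsal-high. With the length trend removed, the epidermis list gave 0 ventral-high and 3 dorsal-high copies and the phloem list 2 and 3. All measured genes then gave 11.1% and 8.1%. In the list of ovule and seed coat genes 0 of 4 were called, beside 13.2% and 11.5% of all measured genes as counted. Only 3 of its 7 loci were found. The measured copies were those of ANT (Csa2G354000, Csa6G496390 and Csa4G644740) and BEL1 (Csa5G152860), so the list covers these tissues poorly. TT16, a seed coat gene, had 1 ventral and 0 dorsal reads. The part of these tissues in the YABBY ratios was not tested.

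The genes whose RPKM values in both libraries came nearest to those of the abundant YABBY copies were found over 2 libraries only. Nearest to YAB2 were PDE334 (Csa2G381850), at 238.7 RPKM in the ventral and 182.2 RPKM in the dorsal library, UGE5 (Csa5G148720) and the expansin gene EXPA1 (Csa1G009820), at Euclidean distances of 0.0595, 0.0940 and 0.134 on the log2 scale. Nearest to YAB3 were RPB5B (Csa3G822200), PEX11D (Csa3G124740) and FUS8 (Csa3G855380), at 0.0215, 0.0254 and 0.0415.

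Depth was 21863715 reads in the ventral library, where 20249 genes had a read, and 11893394 in the dorsal library, where 19528 did. The floor of 3 reads equals 0.137 CPM in the ventral library and 0.252 CPM in the dorsal library. In all, 2304 measured genes were ventral-high and 2005 dorsal-high. With total reads as the scale each log2 ratio was 0.23 higher, 3336 genes (19.1%) were ventral-high and 1283 (7.35%) dorsal-high. The same 3 YABBY copies were then called, with YAB1, CRC and YAB5 at -3.08, -2.31 and -2.03.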

How the data were processed

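Per the labels' protocols, directional libraries were made from polyadenylated RNA. The submitters' processing notes name TopHat2 and edgeR with no version. How reads were counted, whether by strand, and on which genome build is not stated in the labels used here. The authors deposited raw read counts per gene for 20700 genes and, per the file headers, RPKM values for 20815 genes; the read counts were used for ratios and the deposited RPKM values for levels. Gene names are those of Arabidopsis homologues in the deposited tables, and FIL is listed there as YAB1. None of the identifiers matched the RefSeq table at hand, and no sequences were used here.

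Libraries were scaled by TMM (edgeR 4.0.16, R 4.3.3) over genes of at least 20 reads. Intervals are exact binomial or Poisson intervals at 95% (scipy 1.17.1) and cover counting error only, since there is 1 library per side. Amplified copies are not independent molecules, so the intervals can be too narrow even for counting error. A library at 0 was set to 3 reads. Exonic length was taken from reads over RPKM, with its constant set at the 99.9th percentile of implied over listed gene length, and the length trend was a running median over 1001 genes. The steps were tested on simulated data. The YABBY members, the lists (by Arabidopsis locus) and the alternatives were chosen with earlier results of these data known. The genes named are every YABBY copy, every measured copy of the polarity and co-repressor lists, up to 3 called members per direction of other lists, and the 3 named genes nearest to each of the 2 most abundant YABBY copies; further list members given with their values were chosen after these were seen. Alternatives were total reads, DESeq2 1.42.0 size factors, no minimum or 100 reads, a 99% interval, a fold of 1.5, RPKM ratios and removal of the length trend.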

Additional observations from a re-analysis of the deposited data

How the results depend on the processing

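No paired analysis was possible because there is 1 library per side, and neither can be left out. YAB1, YAB5 and CRC stayed called higher in the dorsal library under every alternative that kept them and gives an interval, and YAB2 and YAB3 stayed uncalled; a minimum of 100 reads removed CRC. The log2 ratio ranged from -3.32 to -3.06 for YAB1, from -2.28 to -1.72 for YAB5, from -2.55 to -2.09 for CRC, from -0.31 to -0.04 for YAB3 and from 0.20 to 0.66 for YAB2. The YABBY median of -2.27 was -1.72 with the length trend removed and -1.28 with a minimum of 100 reads, which leaves 4 copies. With the length trend removed, 0 of the 7 co-repressor copies were called in place of 5. The partner and polarity lists together then gave 3 ventral-high and 5 dorsal-high of 45 measured copies, in place of 7 (15.6%) and 3 (6.67%). All measured genes gave 11.1% and 8.1% with the trend removed and 13.2% and 11.5% as counted. With total reads, the marker lists gave 6 ventral-high and 9 dorsal-high of 50 measured copies, in place of 3 (6%) and 15 (30%). On that scale all measured genes gave 3336 (19.1%) ventral-high and 1283 (7.35%) dorsal-high, in place of 13.2% and 11.5%. A fold of 1.5 gave 4243 ventral-high and 3997 dorsal-high genes. Depth limits INO and the scaffold copy of YAB5, for which no ratio could be given.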
